A study of Mus musculus with 16 samples.

Results

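The ubiquitin-specific proteases (USPs) were followed at the transcript level in mouse oocytes with and without Psma7, a subunit of the proteasome core. Members were taken by name, as every row of the expression table whose gene name is Usp followed by a number. The rule gave 53 names in 54 entries, out of 27987 names in 28618 entries, since Usp39 has a second entry. A further name that fits the pattern was left out by the rule and is not analysed here. Usp6nl is picked by its name only and encodes a GTPase-activating protein for Rab proteins, not a protease.

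The table holds 16 RNA-seq libraries in 4 groups of 4 biological replicates, of wild-type (WT) and Psma7 cKO females. They came from fully grown oocytes at the germinal vesicle (GV) stage and from ovulated oocytes labelled metaphase II (MII), here called eggs. The study reports that part of the ovulated Psma7 cKO oocytes stopped before MII. Whether the Psma7 cKO egg pools held such oocytes was not tested. The cKO libraries came from Psma7 flox/flox females with Zp3-Cre, which is active in growing oocytes, so that the follicle cells of these females keep the gene. The WT labels name no floxed allele and no Cre, so that Cre and the loss of Psma7 cannot be told apart. All females were C57BL/6 of 3 to 4 weeks and had received 5 IU PMSG, GV oocytes being taken 44 h later and eggs 14 to 16 h after a following hCG injection, with 0.3% hyaluronidase to remove the cumulus cells. The labels give 5 oocytes per library and do not say which animals a pool came from, so that the p-values below measure the spread between pools only.

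USPs are the largest family of deubiquitinases, cysteine proteases that cut ubiquitin from proteins or trim ubiquitin chains. They act against ubiquitin ligases and so decide which tagged proteins reach the proteasome, and some remove single ubiquitins from histones or receptors, where the tag is a signal and not a mark for degradation. A fully grown mouse oocyte is transcriptionally silent. Maturation from GV oocyte to egg therefore runs on stored mRNA, part of which is degraded on a schedule while another part is held back and then translated as its poly(A) tail is lengthened.

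Values are FPKM, the share of a library's mapped fragments that fall on a transcript, per length of that transcript. Depth read from the smallest steps of the table was 10.5 to 15.7 M fragments per library, at which 1 fragment was worth 0.0199 to 0.0296 FPKM of a transcript such as Usp16. Psma7 was at 142 to 201 FPKM in WT GV oocytes and 11.1 to 18.0 FPKM in Psma7 cKO GV oocytes, and at 97.7 to 172 FPKM in WT eggs and 13.6 to 59.9 FPKM in Psma7 cKO eggs, so that the genotypes did not overlap at either stage. All 14 oocyte markers were in the table, with sums of 9199 to 17562 FPKM over the 16 libraries, while 16 cumulus and granulosa markers summed to 14.1 to 18.5 FPKM, with Cyp19a1 at 6.20 to 15.2 FPKM as the highest of them and 2 to 5 of them at 0 in all libraries of a group. The third Psma7 cKO egg replicate stood apart. Of 396 transcripts that fell over 10-fold in WT, it still held 34.4% of the summed GV level, against 8.80%, 12.7% and 19.1% in the other Psma7 cKO eggs and 5.93% to 6.79% in WT eggs.

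The family as a whole was a small part of the oocyte transcriptome, carried by a few members. Summed over all entries it came to 969 ± 22.3 FPKM in WT GV oocytes (SD, n = 4), 947 ± 20.4 FPKM in Psma7 cKO GV oocytes, 1121 ± 17.5 FPKM in WT eggs and 1070 ± 22.2 FPKM in Psma7 cKO eggs. WT eggs lay between 1100 and 1136 FPKM and Psma7 cKO eggs between 1054 and 1103 FPKM. Eggs of either genotype lay above all GV oocytes. Of the 54 entries, 42 had a mean of at least 1 FPKM in a group, and 22 had at least 10 FPKM in WT GV oocytes against 19 in WT eggs.

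**Figure D1:**
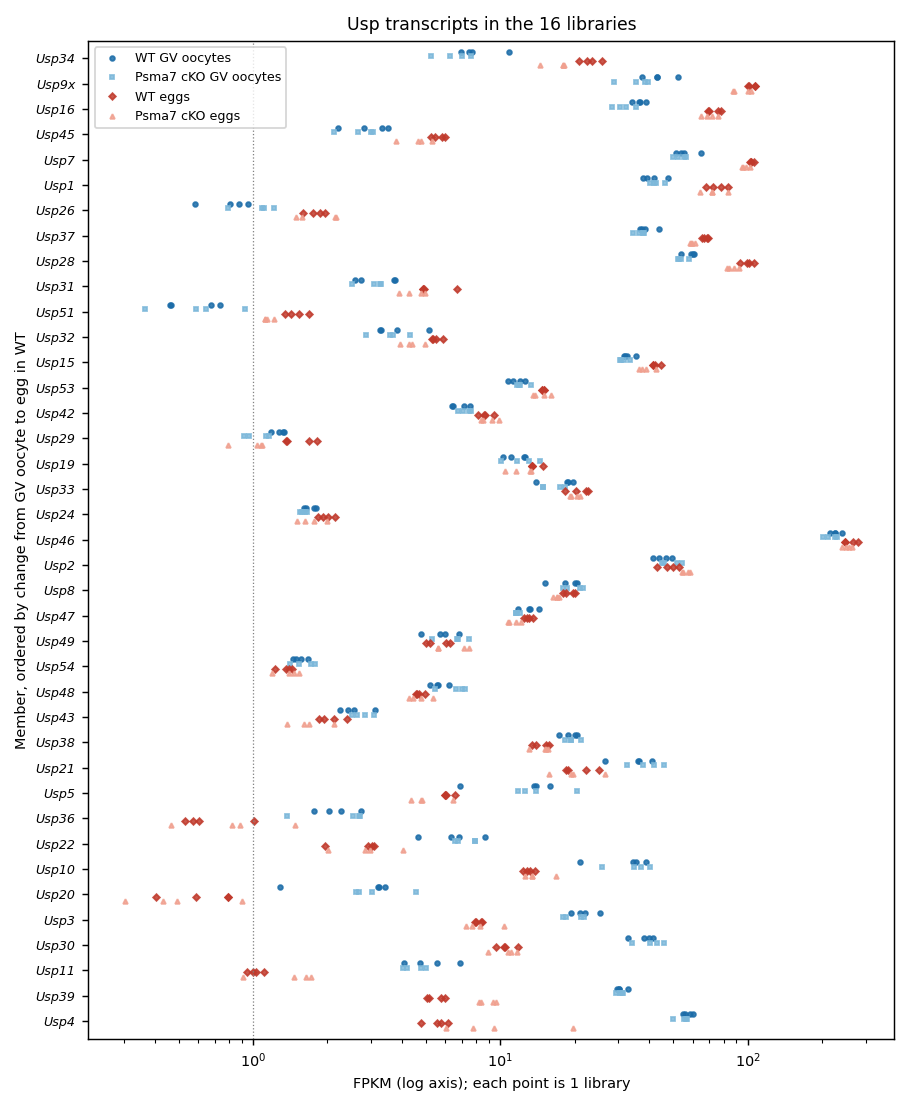
FPKM on a log axis of the 39 members tested for maturation in WT, with 1 point per library and members ordered by their change from GV oocyte to egg in WT, the largest rise at the top. Usp46 lay farthest to the right in all 4 groups, eggs (red) lay left of GV oocytes (blue) for members at the bottom such as Usp4 and Usp39 and right of them for members at the top such as Usp34 and Usp9x, and values under the dotted line at 1 FPKM were set to 1 before the fits.

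Usp46, whose enzyme works with Wdr48 and Wdr20 and is known for trimming glutamate receptors in neurons, was the highest member in every group. It measured 225, 241, 215 and 226 FPKM in WT GV oocytes, 229, 211, 225 and 202 FPKM in Psma7 cKO GV oocytes, 247, 248, 279 and 267 FPKM in WT eggs, and 251, 263, 258 and 241 FPKM in Psma7 cKO eggs. It alone made up 22.9% to 23.7% of the family's summed FPKM by group mean. The next members in WT GV oocytes were lower by a wide margin, with Usp28 at 58.4 ± 3.21 FPKM, Usp4 at 57.2 ± 2.49 FPKM, Usp7 at 56.2 ± 5.91 FPKM, Usp2 at 45.5 ± 3.48 FPKM and Usp9x at 44.0 ± 6.31 FPKM (SD, n = 4). The means of Usp28, Usp4 and Usp7 were closer to each other than their spread. In WT eggs the order after Usp46 became Usp9x at 104 ± 3.67 FPKM, Usp7 at 104 ± 1.73 FPKM, Usp28 at 99.8 ± 5.36 FPKM, Usp1 at 75.2 ± 6.87 FPKM and Usp16 at 73.5 ± 4.42 FPKM, where Usp9x, Usp7 and Usp28 again lay within their spread, as did Usp1 and Usp16. Usp4 moved from rank 3 to rank 25. The exons of Usp46 overlap those of 2 RNAs on the opposite strand, Usp46os1 and Usp46os2, and the library type does not keep strand, so that their fragments cannot be told apart.

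The 12 entries under 1 FPKM in all 4 group means were Usp13, Usp17la, Usp17lb, Usp17lc, Usp17le, Usp18, Usp25, Usp27x, Usp35, Usp40, Usp44 and the second Usp39 entry. Among them are Usp44, known as a brake on chromosome segregation in dividing cells, which was at 0.196 to 0.405 FPKM in WT GV oocytes and 0.177 to 0.242 FPKM in WT eggs, and Usp18, which removes the ubiquitin-like ISG15. The Usp17l genes are near-identical copies, and their values are uncertain because the sharing of their reads is not known. Several of the low members have an abundant relative. Usp25 was at 0.128 FPKM in WT GV oocytes and its paralog Usp28 at 58.4 FPKM, Usp12 was at 1.17 FPKM and Usp46 at 227 FPKM, a ratio of 194, and Usp24 was at 1.70 FPKM and Usp9x at 44.0 FPKM. Usp5, which takes apart free ubiquitin chains, was at 12.6 FPKM and its paralog Usp13 at 0.839 FPKM.

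Maturation in WT moved most expressed members, in both directions. Of 39 members tested, 17 rose (43.6%) and 13 fell (33.3%), where 26.1% of the 10475 entries tested rose and 52.4% fell (limma, Benjamini-Hochberg adjusted over all entries tested). The median log2 fold change was 0.20 over members and -0.44 over all entries. The values are shares of a library, and scaling each library by its median ratio over expressed genes moved the median of all entries by 0.23, after which 23 members were higher and 11 lower, against 33.3% and 45.8% of all entries, including all 17 that rose and 11 of the 13 that fell.

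The fall was largest for Usp4, an enzyme linked to the spliceosome and to TGF-beta receptors. It measured 58.4, 60.1, 54.7 and 55.6 FPKM in WT GV oocytes and 4.79, 6.14, 5.74 and 5.54 FPKM in WT eggs. All eggs lay far below all GV oocytes, and the log2 fold change was -3.37 (SE 0.10, adjusted p = 7.0e-10). This was a 10.3-fold difference of means and the only fall over 10-fold among members with at least 1 FPKM in both group means. Usp35, whose mean went from 0.523 to 0.0167 FPKM, lay under the floor of 1 FPKM at both stages. Usp39, a spliceosome protein that has the protease fold but is predicted to be inactive, went from 30.3, 30.3, 29.5 and 32.9 FPKM to 5.04, 5.76, 5.15 and 5.95 FPKM. Here too the stages were far apart, with a log2 fold change of -2.49 (SE 0.10, adjusted p = 3.1e-09).

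Usp11, a nuclear paralog of Usp4 known from DNA repair and encoded on the X chromosome, measured 6.86, 5.55, 4.07 and 4.75 FPKM in WT GV oocytes and 0.997, 0.946, 1.03 and 1.11 FPKM in WT eggs. The eggs sat at the floor of 1 FPKM, so that its log2 fold change of -2.33 (adjusted p = 2.6e-07) depends on the floor. Usp30, which sits in the outer mitochondrial membrane and counters the removal of mitochondria by mitophagy, went from 41.6, 38.2, 32.8 and 40.1 FPKM to 10.5, 10.4, 9.57 and 11.8 FPKM, a log2 fold change of -1.85 (SE 0.10, adjusted p = 4.6e-08). The exons of Usp30 overlap those of Alkbh2 and Svop on the opposite strand. Usp3, a histone H2A deubiquitinase, fell by 1.42 on the log2 scale (adjusted p = 3.1e-07), from 19.3 to 25.3 FPKM in GV oocytes to 7.87 to 8.42 FPKM in eggs.

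Usp20, which acts on endocytosed receptors, was at 3.24, 3.42, 1.29 and 3.20 FPKM in WT GV oocytes and 0.406, 0.795, 0.796 and 0.588 FPKM in WT eggs, under the floor, and its log2 fold change of -1.38 (adjusted p = 8.7e-04) compares with that floor. Usp5 was at 13.7, 15.9, 6.85 and 13.9 FPKM in WT GV oocytes and at 5.99, 6.54, 6.05 and 5.98 FPKM in WT eggs, with a log2 fold change of -0.97 (SE 0.23, adjusted p = 0.0024). The third GV replicate was the low library for both. Without it the log2 fold changes were -1.72 for Usp20 and -1.24 for Usp5. The other members that fell were Usp10, Usp22, Usp36, Usp21, Usp38 and Usp48, by between 1.27 and 0.26 on the log2 scale, of which Usp22 is the deubiquitinase of the SAGA transcription complex. Usp36 had a mean of 0.680 FPKM in WT eggs, under the floor, so that its change depends on the floor.

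The rises were smaller, at most 2.81-fold. Usp34, a very large enzyme that acts on axin in Wnt signalling, measured 7.69, 7.44, 10.9 and 6.91 FPKM in WT GV oocytes and 25.7, 22.4, 20.9 and 23.4 FPKM in WT eggs. The eggs all lay above the GV oocytes, and the log2 fold change was 1.51 (SE 0.14, adjusted p = 2.8e-06). Its exons overlap those of Ahsa2 on the opposite strand. Usp9x, an X-linked enzyme with many substrates in development and endocytosis, went from 42.8, 37.3, 52.5 and 43.2 FPKM to 107, 108, 102 and 100 FPKM (log2 fold change 1.25, SE 0.10, adjusted p = 7.5e-07). Usp16, a histone H2A deubiquitinase needed for mitotic progression in cultured cells, went from 36.7, 34.1, 38.9 and 36.4 FPKM to 69.4, 78.3, 70.1 and 76.2 FPKM (log2 fold change 1.01, SE 0.08, adjusted p = 5.4e-07), with exons that overlap Cct8 on the opposite strand.

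The remaining rises named by rank kept within 1 log2 unit. Usp45, the closest relative of Usp16, rose by 0.94 at a low level, from 2.97 ± 0.59 to 5.62 ± 0.33 FPKM (SD, n = 4). Usp7, which stabilises Mdm2 and p53, rose by 0.89, from 56.2 ± 5.91 to 104 ± 1.73 FPKM. Usp1, which removes ubiquitin from PCNA and FANCD2, rose by 0.85, from 41.7 ± 4.44 to 75.2 ± 6.87 FPKM, and Usp28, which protects Myc in tumour cells, rose by 0.77. The others that rose were Usp26, Usp37, Usp31, Usp51, Usp32, Usp15, Usp53, Usp42, Usp19 and Usp46, by 0.84 to 0.20. Usp26 and Usp51 had means of 0.806 and 0.585 FPKM in WT GV oocytes, under the floor of 1 FPKM, so that their changes depend on the floor. Usp2 (0.08, adjusted p = 0.41) and Usp8, the endosomal enzyme that spares receptors from lysosomal degradation (0.05, adjusted p = 0.68), did not pass the test.

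**Figure D2:**
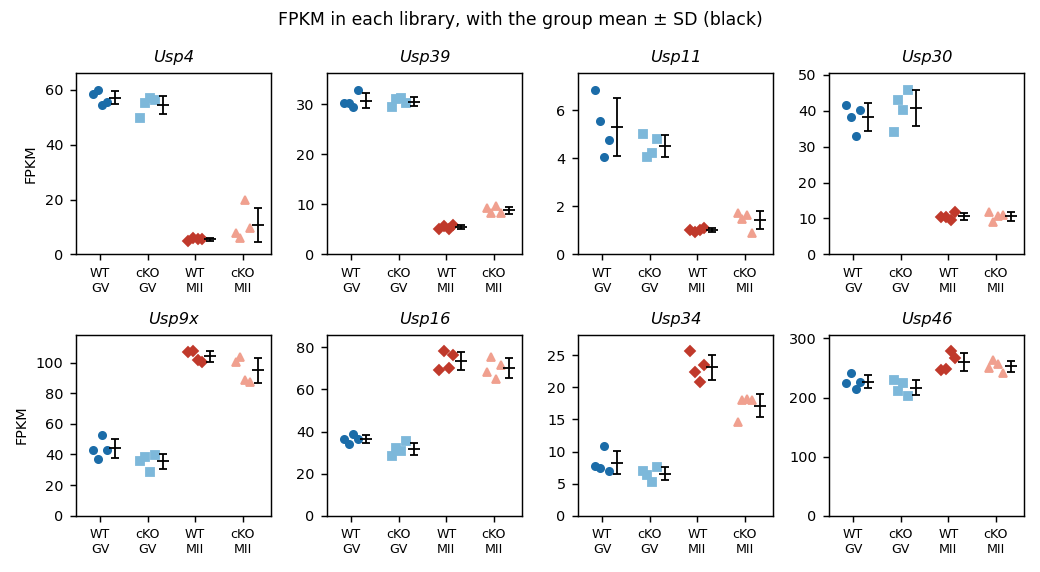
FPKM in each library (linear axes from 0, 1 point per library, group mean ± SD in black, n = 4) for the 4 members of largest fall, the 3 of largest rise and Usp46. GV oocytes and eggs of 1 genotype were apart in every panel, by little for Usp46, and in eggs the genotypes were apart for Usp39 and Usp34 while 1 of the Psma7 cKO libraries stood high for Usp4.

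The cDNA was primed with oligo(dT), which starts at poly(A) tails. With such priming a lower share and a shorter or lost tail cannot be told apart, nor can a higher share and a longer tail. The annotated transcript ends are therefore shown for 3 members that rose and 3 that fell. Each is the 30 bases around the polyadenylation signal motif, AATAAA or ATTAAA, nearest the annotated 3′ end, in capitals, read from GENCODE M21 (GRCm38). For Usp9x the motif in capitals ends at the annotated 3′ end itself, and its window also holds AATAAA before it, in small letters. Which of them acts as the signal was not tested. The ends used in these oocytes were not measured. Usp9x lies at chrX:13173299-13173328 (+), Usp16 at chr16:87483480-87483509 (+), Usp28 at chr9:49042472-49042501 (+), Usp30 at chr5:114124684-114124713 (+), Usp3 at chr9:66514646-66514675 (-) and Usp11 at chrX:20720505-20720534 (+), all in the 3′ UTR.
Usp9x: atatacaaaaataaaactttataaATTAAA
Usp16: agtgcttgacacatcAATAAActgatattc
Usp28: gttttataaatgtgcAATAAAagtatttgt
Usp30: aagacaagcaagctcAATAAAgaaagcctc
Usp3: cagttgttggccaaaAATAAAcaccattcc
Usp11: ctcctaagtgctggcATTAAAagcatgacc
A signal of 1 of these forms, AATAAA or ATTAAA, was in the last 40 bases of 39 of the 53 members (73.6%) and of 76.8% of all expressed genes matched. The Usp28 window also holds TTTTAT, a form of the cytoplasmic polyadenylation element by which maturing oocytes lengthen the tails of stored mRNAs. TTTTAT or TTTTAAT, searched on the transcript strand, was in the last 100 bases of 2 of the 16 members that rose and had a 3′ UTR of this length (12.5%) and of 1 of 13 that fell (7.69%), against 20.7% of 8336 expressed genes. No difference in these letters between members that rose and fell can be read from such counts.

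The direction of change went together with GC content. Members that rose had a median GC content of 43.8% over the annotated transcript, and members that fell 51.2%. Over the 39 members Spearman's rho of the log2 fold change with GC content was -0.73 in WT and -0.71 in Psma7 cKO, and with transcript length 0.27 and 0.23. Over all entries with a GC value rho with GC content was -0.39 and -0.40. The log2 fold changes of Psma7 cKO over WT also went with GC content. Over 38 members rho was 0.66 in GV oocytes and 0.37 in eggs, and over all entries 0.21 and 0.27. The members share their libraries, and these are descriptions. GC content also went with differences between replicates. The deviation of the third WT GV replicate from the other WT GV libraries had rho -0.70 with the GC content of the members, and that of the third Psma7 cKO GV replicate 0.70. The third WT GV replicate was the lowest of its group for 21 of 39 members.

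With the trend of each library against GC content removed over all entries, an alternative added after the data were seen, 26 members were higher in WT eggs and 6 lower, where 38.9% of all entries were higher and 37.9% lower. The 17 that rose kept their call. The 6 that fell in both fits were Usp4 (-2.54), Usp11 (-1.77), Usp39 (-1.70), Usp3 (-1.02), Usp30 (-0.68) and Usp22, while 5 members lost their call. Of these Usp20 (-0.13, adjusted p = 0.59), Usp10 (-0.13) and Usp38 (-0.03) had values below 0, and Usp5 (0.27, adjusted p = 0.19) and Usp36 (0.13) had values above 0 that did not pass the test. Usp21 and Usp48 passed the test in the other direction. The correction also removes any change of GC-rich transcripts that belongs to maturation, and the part of library preparation in the GC trend was not tested.

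**Figure D3:**
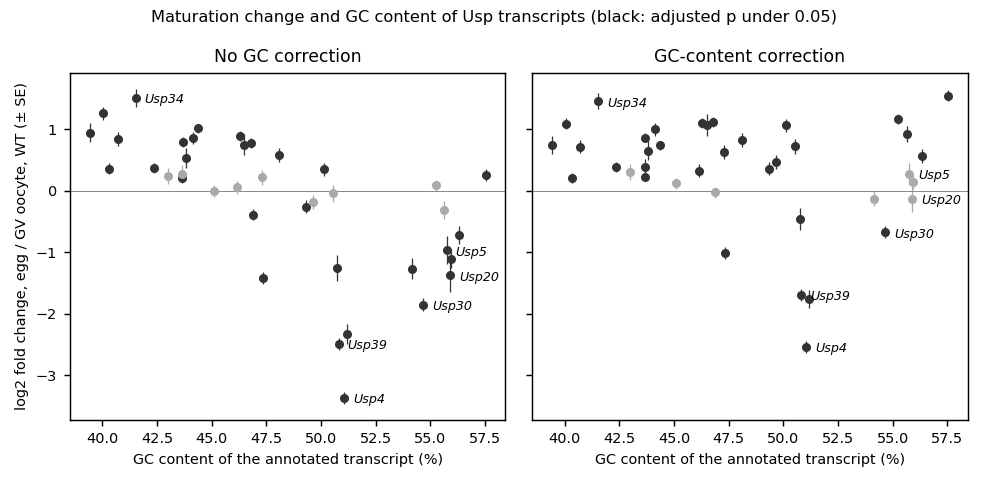
Log2 fold change from GV oocyte to egg in WT (± SE, n = 4 libraries per stage) against the GC content in percent of the annotated transcript for the 39 members, without (left) and with (right) removal of each library's GC trend. Without the correction the members at the right of the axis lay mostly below 0, and with it Usp5 and Usp20 moved to near 0 while Usp4 and Usp39 stayed far below it.

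Maturation of Psma7 cKO oocytes also moved members in both directions. Of 39 members tested 16 rose, where 23% of all entries did, and 15 fell, where 51% did. Of the 38 members tested in both genotypes, 14 rose in both and 13 fell in both, none was called in opposite directions, 2 passed only in WT (Usp19 and Usp32), 3 only in Psma7 cKO (Usp8, Usp33 and Usp43) and 6 in neither. With rescaling by the median ratio, which moved the median of all entries by 0.20, 18 members were higher and 12 lower, where 29.4% of all entries were higher and 44.5% lower. With the GC correction 22 and 7 were, against 34.7% and 35.5% of all entries. Usp43, which fell by 0.72 in Psma7 cKO without the correction, then passed in the other direction (0.38, adjusted p = 0.021 by limma). Usp19 and Usp32 then passed in Psma7 cKO as well. Usp8, at an adjusted p of 0.0497 by limma without the correction, lost its call.

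The largest falls were Usp4 (log2 fold change -2.49, SE 0.31, adjusted p = 7.9e-05), Usp30 (-1.94), Usp39 (-1.79), Usp11 (-1.66), Usp20 (-1.65) and Usp5 (-1.51), and the largest rises Usp9x (1.42), Usp34 (1.40) and Usp16 (1.15). The Psma7 cKO eggs held 0.304 to 0.901 FPKM of Usp20, under the floor of 1 FPKM, and with a floor of 0.1 FPKM its log2 fold change was -2.67. With the GC correction Usp20 was at -0.53, and Usp5 was at -0.40 and lost its call (adjusted p = 0.055). Usp50, not tested in WT maturation because of its low level there, rose by 1.04 in Psma7 cKO, from 1.07 ± 0.14 to 2.22 ± 0.13 FPKM. The third Psma7 cKO egg replicate held the most Usp4, and without it the log2 fold change of Usp4 was -2.84.

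**Figure D4:**
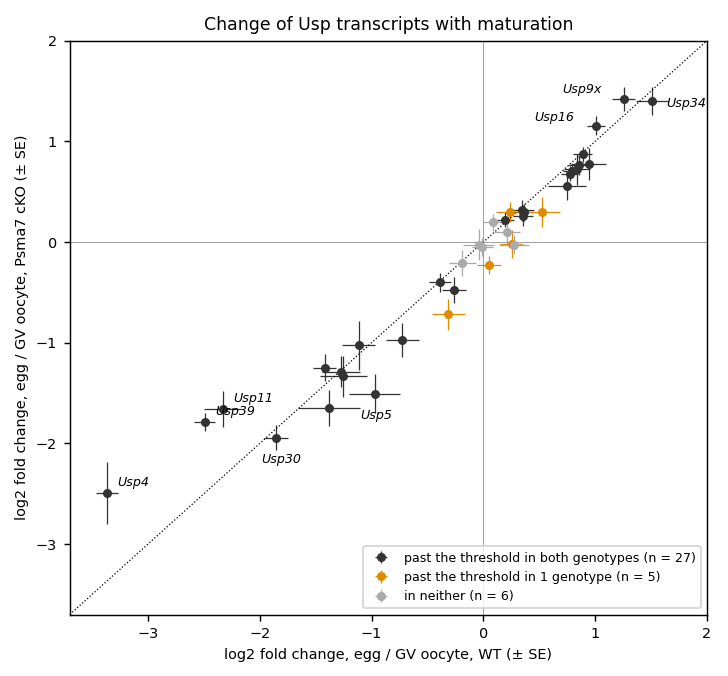
Log2 fold change from GV oocyte to egg (± SE) in Psma7 cKO against that in WT for the 38 members tested in both, with the dotted line where both are equal. Most members lay along the line, and Usp4, Usp39 and Usp11 lay above it among the falling members, of which only Usp39 passed the test of the difference between genotypes.

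The genotype by stage interaction asks whether the change with maturation differed between genotypes. It was called for 1 of 39 members, Usp39, in the higher direction, where 1.07% of all entries were called higher and 0.188% lower. The 114 entries called higher became 605 without the second Psma7 cKO egg replicate and 37 without the third Psma7 cKO GV replicate. The fall of Usp39 was smaller in Psma7 cKO by 0.71 on the log2 scale (SE 0.12, adjusted p = 0.015). Usp4 had the largest estimate, 0.88 (SE 0.34, adjusted p = 0.19), and Usp11 one of 0.67 (SE 0.25, adjusted p = 0.17), neither past the test. Without the third Psma7 cKO egg replicate the estimate for Usp39 was 0.67 (adjusted p = 0.021) and that for Usp4 0.53 (adjusted p = 0.16).

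In GV oocytes, where the Psma7 transcript was already low, no member passed the test. By limma 0 of 38 members were called, with 0 higher and 1 lower at an unadjusted p under 0.05 (Usp9x), where 0.0994% of all entries were called higher and 0.0181% lower, and 7.62% and 3.06% had an unadjusted p under 0.05 in these directions. The log2 fold changes of Psma7 cKO over WT ran from -0.32 for Usp34 to 0.27 for Usp20. Usp9x was at 42.8, 37.3, 52.5 and 43.2 FPKM in WT and 35.4, 38.6, 28.7 and 39.5 FPKM in Psma7 cKO, overlapping groups with a log2 fold change of -0.31 (adjusted p = 0.44). The extreme libraries were the third replicates, and without the WT one the value was -0.22. No member differed over 3-fold between group means, where 0.0245% of all entries did.

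In eggs 3 of 38 members differed between genotypes. Usp39 was higher in Psma7 cKO, where 6.53% of all entries were called higher, and Usp34 and Usp29 were lower, where 1.49% were. These shares moved with single libraries. The 620 entries called higher and 141 called lower became 3 and 0 without the third WT egg replicate, 12 and 0 without the first and 1024 and 136 without the second Psma7 cKO egg replicate. Usp39 measured 9.32, 8.35, 9.61 and 8.21 FPKM in Psma7 cKO eggs against 5.04, 5.76, 5.15 and 5.95 FPKM in WT eggs. Every Psma7 cKO library lay above every WT library, with a log2 fold change of 0.70 (SE 0.11, adjusted p = 0.019), a 1.62-fold difference. In GV oocytes the 4 Psma7 cKO libraries had measured 29.5 to 31.3 FPKM and the 4 WT libraries 29.5 to 32.9 FPKM. Usp39 thus fell in both genotypes, and its level in Psma7 cKO eggs lay above that of WT eggs and below both GV groups. Its call was lost when the first or the third WT egg replicate was left out (adjusted p of at most 0.070) and held without the third Psma7 cKO egg replicate (0.66, adjusted p = 0.029).

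Usp34 measured 14.5, 18.0, 18.1 and 18.0 FPKM in Psma7 cKO eggs against 25.7, 22.4, 20.9 and 23.4 FPKM in WT eggs, apart in all libraries. The log2 fold change was -0.43 (SE 0.10, adjusted p = 0.039). It rose with maturation in both genotypes, and in GV oocytes its genotype difference was -0.32 (adjusted p = 0.54). Usp29, a gene of the paternally expressed Peg3 cluster, was low throughout, at 0.792, 1.03, 1.09 and 1.08 FPKM in Psma7 cKO eggs and 1.69, 1.81, 1.36 and 1.37 FPKM in WT eggs, close to the floor. Its log2 fold change was -0.56 (SE 0.14, adjusted p = 0.047). The exons of Usp29 overlap those of Zim3 on the opposite strand. Members without a call were also apart between genotypes in all egg libraries. Usp2 was higher in Psma7 cKO, and Usp7, Usp8, Usp19, Usp28, Usp32, Usp37, Usp47 and Usp51 were lower. How many of all entries were apart was not counted. Both lower calls, of Usp34 and Usp29, were near the threshold. The call of Usp34 was lost in 7 of the 8 fits that left out a library and that of Usp29 in all 8, the third Psma7 cKO egg replicate among them (adjusted p = 0.058 and 0.080).

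Usp4 was higher on average in Psma7 cKO eggs but did not pass the test. Its 4 libraries measured 7.76, 6.04, 19.8 and 9.45 FPKM against 4.79 to 6.14 FPKM in WT eggs, with 1 library inside the WT range, a log2 fold change of 0.81 (SE 0.32) and an adjusted p of 0.13. The order of these 4 libraries was that of the remainder of the transcripts that fell over 10-fold in WT, which was 12.7%, 8.80%, 34.4% and 19.1% and did not include Usp4. Without the third library the log2 fold change was 0.46 (adjusted p = 0.14). With all 16 libraries in 1 fit, which pools the spread over the groups, Usp4 and Usp50 passed the test. Usp50 (0.72, adjusted p = 0.094), Usp11 (0.46, adjusted p = 0.13) and Usp2 (0.23, adjusted p = 0.091) also missed the threshold. So did members that were lower in Psma7 cKO eggs, Usp37 (-0.18, adjusted p = 0.070), Usp28 (-0.20, adjusted p = 0.085), Usp32 (-0.33, adjusted p = 0.091) and Usp51 (-0.38, adjusted p = 0.093). At an unadjusted p under 0.05 by limma, 5 members were higher and 9 lower in eggs, beside 20.6% and 8.8% of all entries. No member differed over 3-fold between genotypes in eggs, where 0.591% of all entries did, and none did so over 2-fold.

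Grouped by known role, every group below held members that rose and members that fell in WT, where 26.1% of all entries rose and 52.4% fell. With 3 to 8 members tested per group, no difference between roles can be read from these counts. Of the 10 linked to histone H2A or H2B, 7 were tested for maturation in WT. Usp16, Usp46 and Usp51 rose, Usp3, Usp21 and Usp22 fell, and Usp49 did not pass the test. Of the 8 linked to DNA damage or p53, all tested, Usp1, Usp7, Usp28 and Usp45 rose and Usp10, Usp11 and Usp48 fell, with a median log2 fold change of 0.38. Of the 7 linked to TGF-beta, Wnt and related signalling, 6 were tested, 3 rose (Usp9x, Usp15 and Usp34) and only Usp4 fell. Of the 5 of endosomes, the endoplasmic reticulum and mitochondria, Usp19 rose and Usp20 and Usp30 fell. Among the 3 of splicing and the nucleolus, Usp36 and Usp39 fell and Usp42 rose.

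Close paralogs did not always move together. Usp4, Usp11 and Usp15 are one branch of the family. Usp4 was at 57.2 FPKM and Usp15 at 32.9 FPKM in WT GV oocytes, a ratio of 1.74 in favour of Usp4, while in WT eggs Usp15 was 7.63-fold above Usp4 (42.4 against 5.55 FPKM). In Psma7 cKO eggs, where Usp4 spread most, the ratio of means was 3.61. Usp16 and Usp45 both rose and kept a ratio of 12.3 in WT GV oocytes and 13.1 in WT eggs. Usp36 fell and its paralog Usp42 rose.

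The other deubiquitinase families changed in both directions as well. Of 29 genes tested in the OTU, UCH, Josephin, JAMM, MINDY and ZUFSP families and among USP-fold proteins without a number, 11 rose and 14 fell in WT, beside 26.1% and 52.4% of all entries, with a median log2 fold change of -0.15. The lowest were Fam188b (-3.93), Otub2 (-2.54) and Otub1 (-2.47), the last of which holds back ubiquitin-conjugating enzymes, and the highest were Uchl3 (1.06), Otud4 (0.98) and the ataxin Atxn3 (0.97). Between genotypes 0 of 29 passed the test in GV oocytes by limma, where 0.0994% and 0.0181% of all entries were called higher and lower. At an unadjusted p under 0.05, 2 were higher and 0 lower, beside 7.62% and 3.06% of all entries. In eggs 3 of 28 were higher in Psma7 cKO, beside 6.53% of all entries, namely Uchl1 (1.07, adjusted p = 0.015), a ubiquitin hydrolase known from neurons and oocytes, Josd2 (1.04, adjusted p = 0.032) and Otub1 (0.77, adjusted p = 0.038), all of which had fallen with maturation in WT as Usp39 had. Otud4 was lower (-0.33, adjusted p = 0.043), where 1.49% of all entries were, and it had risen with maturation in WT as Usp34 had. The genotype comparison in eggs and the maturation comparison in WT use the same WT egg libraries, with opposite sign. The paired directions of these genes are therefore not independent of each other.

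Known partners of the family were also tested. Eny2 and Atxn7, which form the SAGA module of Usp22, rose in WT by 1.84 and 0.78 on the log2 scale while Usp22 fell by 1.25. Wdr48 (0.06, adjusted p = 0.58) and Wdr20 (0.12, adjusted p = 0.27), the activators of Usp46, did not pass the test. Sart3, which brings Usp4 and Usp15 to the spliceosome, fell by 2.27, G3bp1, a partner of Usp10, by 1.25, Stam2, a partner of Usp8, by 1.12 and Gmps, a partner of Usp7, by 1.06. Of 10 partners tested between genotypes, 0 passed the test at either stage by limma, and 0 had an unadjusted p under 0.05. Over all entries 0.0994% were called higher and 0.0181% lower in GV oocytes, and 6.53% and 1.49% in eggs. An unadjusted p under 0.05 was found for 7.62% and 3.06% of all entries in GV oocytes and for 20.6% and 8.8% in eggs.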

How the data were processed

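Expression was read from the table the authors deposited, in FPKM, for 16 libraries. Lysates received ERCC RNA, the Smart-seq2 protocol primed cDNA with oligo(dT) and keeps no strand, and the submitters' processing notes name TopHat2 2.1.1, Cufflinks 2.2.1 and mm10. The gene annotation is not given in the sources used here. The table holds 0 ERCC entries, so that all values are shares of a library. The labels give 5 oocytes per library, while the study's methods state another pool size.

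Values below 1 FPKM were set to 1 and log2 values were fitted with limma 3.58.1 (R 4.3.3, empirical Bayes with trend) on the 8 libraries of a comparison, or on all 16 for the interaction. Tests took every entry whose average over those libraries reached 1 FPKM, with Benjamini-Hochberg adjustment over all of them and a threshold of 0.05, and fold changes are on this floored scale. The 3-fold rule was applied to floored group means, after the study's methods. Over all entries it gave 4 higher and 3 lower in GV oocytes and 167 higher and 2 lower in eggs. The study reports larger counts in GV oocytes and for higher transcripts in eggs, and the reason was not tested. In simulated data limma was tested for recovery of known changes.

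Members named are those called between genotypes, the 6 highest and 6 lowest called in WT maturation, the 6 most abundant in WT at each stage, 8 of known role and all under 1 FPKM, and from the lists of other deubiquitinases and partners the 3 highest and 3 lowest called in WT and any called between genotypes. Usp50, Usp21, Usp48, Usp22, Wdr48, Wdr20, Gmps and the other members named beside these were chosen after their values were seen. Members and lists were chosen with earlier results of these data known, and roles are textbook knowledge.

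All 53 names matched GENCODE M21 (GRCm38), which gave positions, transcript lengths and sequences, and 17 members have exons overlapped by another gene. GC content was that of the principal annotated transcript, or of the longest transcript for the correction, which had a value for 91.7% to 92.1% of entries. The alternatives were 0.1 FPKM as the floor, log2(FPKM + 1) without a floor, median-ratio rescaling, an average of 5 FPKM or no filter, no trend, a replicate block, entries summed by name, all 16 libraries in 1 fit, 2-fold in place of 3-fold, and each library left out. Other steps used scipy 1.17.1, pandas 2.3.3 and numpy 2.4.6 under Python 3.11.15, and plots matplotlib 3.10.9. Depth limits transcripts under 1 FPKM, and no counting interval was attached to FPKM.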

Additional observations from a re-analysis of the deposited data

Results flagged for a closer look

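The maturation change of Usp39 differed between genotypes by the interaction test, its log2 genotype difference being larger in eggs than in GV oocytes by 0.71 (adjusted p = 0.015 by limma). Among 76 sets of 4 libraries, 19 named members in 4 groups, 3 had a library far from the other libraries of its group, where chance gives about 1 in 20. Usp20 was low in the third WT GV replicate at 1.29 FPKM, with the others at 3.20 to 3.42 FPKM. Usp34 was low in the first Psma7 cKO egg replicate at 14.5 FPKM, with the others at 18.0 to 18.1 FPKM, and the difference of Usp34 between genotypes without this library had an adjusted p of 0.061. Usp5 was high in the second WT egg replicate at 6.54 FPKM, with the others at 5.98 to 6.05 FPKM.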

How the results depend on the processing

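Of 35 calls of named members under 630 alternatives in all, 579 kept direction and call, 49 lost the call and 2 changed direction. Both direction changes came with the GC-content correction, Usp5 in WT maturation (0.27) and Usp8 in Psma7 cKO maturation (0.018). The correction, added after the data were seen, also moved the counts of members that rose and fell in WT to 26 and 6 and the number that fell in Psma7 cKO to 7. The rise of Usp46 lost its call in 7 alternatives in WT and in 4 in Psma7 cKO, and the fall of Usp8 in Psma7 cKO in 11. The genotype calls in eggs were the least stable and took 25 of the 49 losses. The number higher there was 1, but 3 with all 16 libraries in 1 fit. The number lower was 2, but 1 with a floor of 0.1 FPKM, with 1 FPKM added, with no filter, with a mean of at least 5 FPKM, with no trend and with all 16 libraries in 1 fit, and 3 with median-ratio rescaling (Usp37 gained, -0.25, adjusted p = 0.046) and with the GC correction (Usp5 gained, -0.49, adjusted p = 0.035). With 1 library left out, it was 0 to 2 higher and 0 to 1 lower in eggs, and 1 to 2 higher in the interaction, where Usp39 kept its call in all 25 alternatives. Both counts in eggs were 0 without the first or the third WT egg replicate. The deviations of same-numbered replicates from their group means correlated at -0.50 to 0.29, which gives no sign of a pairing by number. Whether same-numbered replicates share an origin cannot be told from these values. A replicate block gave 0 higher and 0 lower in eggs, with 101 and 7 over all entries. Counts for maturation stayed within 1.5 times under all alternatives other than the GC correction, and the count over 3-fold between genotypes was 0 throughout. The causes were not tested. Depth limits members near the floor, such as Usp29, Usp20 and Usp11 in eggs.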
